A study of Homo sapiens with 6 samples.

Results

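The lysosome and autophagy genes described here are 40 genes taken by symbol from a list of lysosomal membrane proteins, acid hydrolases, proton pump subunits, autophagy proteins and the MiT/TFE transcription factors, out of 26184 genes and loci in the count table. Every symbol matched 1 row, and 39 of the 40 had enough counts to be tested, the exception being MITF. RNA sequencing had been carried out on Huh7, a human hepatocellular carcinoma (HCC) cell line of WT genotype, as the parental line (Huh7 P, no treatment, time 0, n = 3) and as the lenvatinib-resistant line derived from it (Huh7 LR, kept in lenvatinib at 1 to 20 μM for 10 months, n = 3). Lenvatinib is a multi-kinase inhibitor given for advanced HCC. Huh7 LR is a line raised once from Huh7 P, and the samples of each line were separate culture plates, so the p-values describe the spread between plates and not between independently derived resistant lines. Once established, Huh7 LR was kept in medium with lenvatinib at the top dose, and whether the plates taken for RNA held the drug is not spelled out. Continued drug exposure and the derived state of the line therefore cannot be told apart.

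The lysosome is the acidic compartment in which cells break down proteins, glycans, lipids and whole organelles. A proton pump, the V-ATPase, acidifies it, soluble hydrolases do the cutting, and heavily glycosylated membrane proteins line it and carry products, ions and lipids across. In autophagy, a double membrane studded with LC3 and GABARAP proteins encloses cargo and fuses with the lysosome. TFEB, TFE3 and MITF bind a short promoter element (CLEAR) with the E-box CACGTG at its core in many of these genes, and mTORC1 at the lysosomal surface holds the factors in the cytoplasm in fed cells.

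Library totals ranged from 62738937 to 71427573 counts in Huh7 P and from 63233655 to 70768720 counts in Huh7 LR, so depth was alike in the lines. Levels below are CPM (a gene's counts as parts of the library total, set to 1e6) on library sizes scaled by the trimmed mean of M-values, and fold changes are log2 of Huh7 LR over Huh7 P. Of 8 hepatoma markers, ALB, TTR, APOA1 and TF were higher in Huh7 LR, none was lower, and their summed level was 40972 to 49923 CPM in Huh7 P and 51948 to 55237 CPM in Huh7 LR. Of 7 leukocyte and macrophage genes, TYROBP, CD163 and PTPRC were at or near 0. TYROBP had 0 counts in every library, and CD163 and PTPRC had at most 5 and 15 counts. The whole leukocyte and macrophage list summed to 62.3 to 67.8 CPM in Huh7 P and 10.8 to 14.8 CPM in Huh7 LR. At low levels, 2 of its 7 genes rose. They were CSF1R (0.0883 ± 0.0617 to 0.376 ± 0.0874 CPM) and AIF1 (0.244 ± 0.0570 to 0.607 ± 0.152 CPM). CD14 did not pass (1.88 ± 0.158 and 2.71 ± 0.776 CPM), and 1 gene fell, LYZ, from 63.7 ± 3.03 to 9.19 ± 1.27 CPM.

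The lysosome and autophagy genes were higher in Huh7 LR as a group. With edgeR's quasi-likelihood test, 29 of the 39 tested (74.4%) rose at an adjusted p under 0.05 and 0 fell. Of all 17531 genes and loci tested, 45.7% passed, 23.3% by rising and 22.4% by falling. The changes were small: the median log2 fold change of the 39 was 0.33, against 0.00 over everything tested, and 36 of the 39 were above 0. A single gene, GABARAPL1, passed the stricter call of an adjusted p under 0.001 with at least a 2-fold change (2.56% of the 39, against 4.43% of all genes and loci higher and 1.78% lower). At an unadjusted p under 0.05, 1 gene was lower (SQSTM1), and DESeq2 called the same 1 gene lower at an adjusted p under 0.05. Every Huh7 LR library was above every Huh7 P library for 30 genes (76.9%, background 28.2%) and below for 1 gene, SQSTM1 (2.56%, background 27.7%). Summed over the 40 genes, the level was 4792 to 4932 CPM in the Huh7 P libraries and 6043 to 6624 CPM in the Huh7 LR libraries. In bulk RNA such as this, fewer cells with a transcript and less transcript per cell cannot be told apart.

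**Figure D1:**
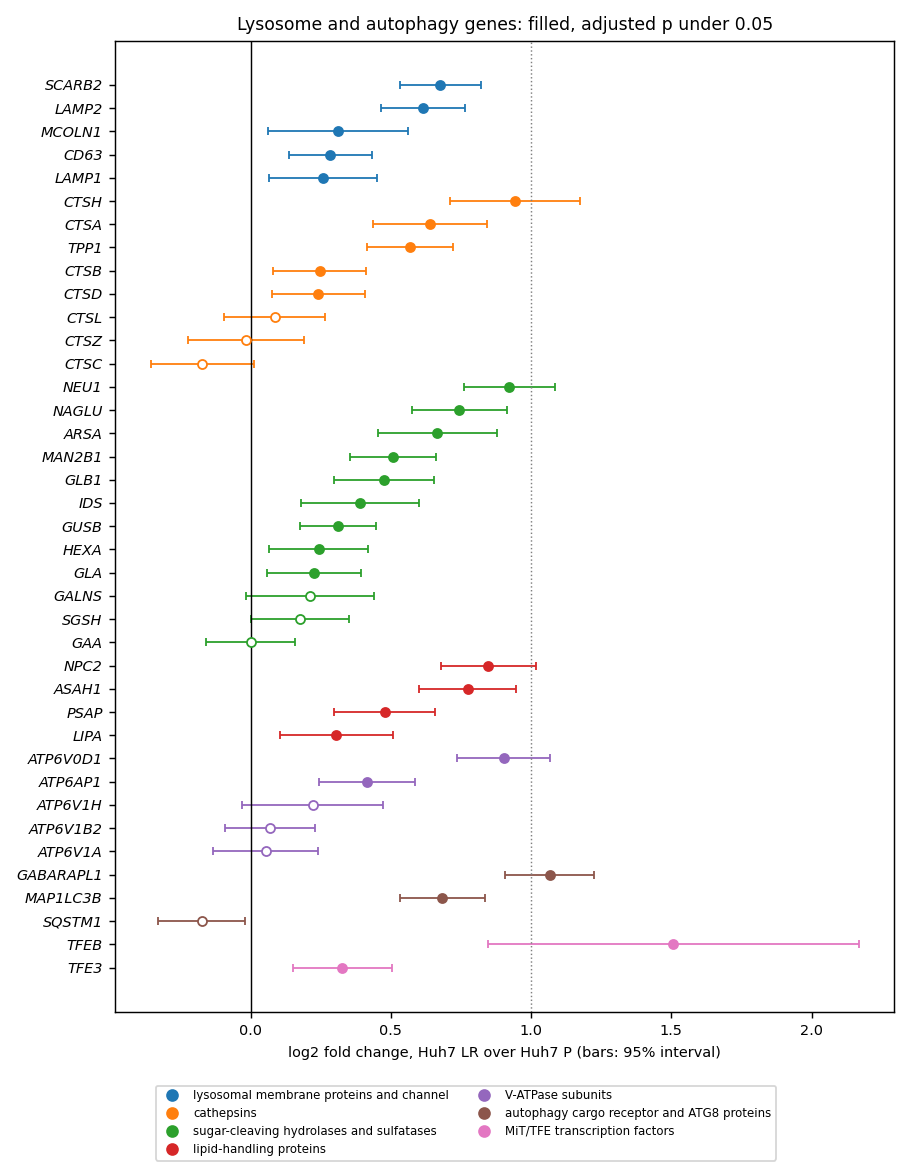
Log2 fold change of Huh7 LR over Huh7 P (x axis, log scale) for the 39 tested genes (y axis), grouped by role and coloured by it, with bars for the 95% interval; filled points passed an adjusted p under 0.05 and the dotted line marks a 2-fold change. Most points lie to the right of 0, GABARAPL1 and TFEB lie past the dotted line, and CTSC and SQSTM1 lie furthest to the left.

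**Figure D2:**
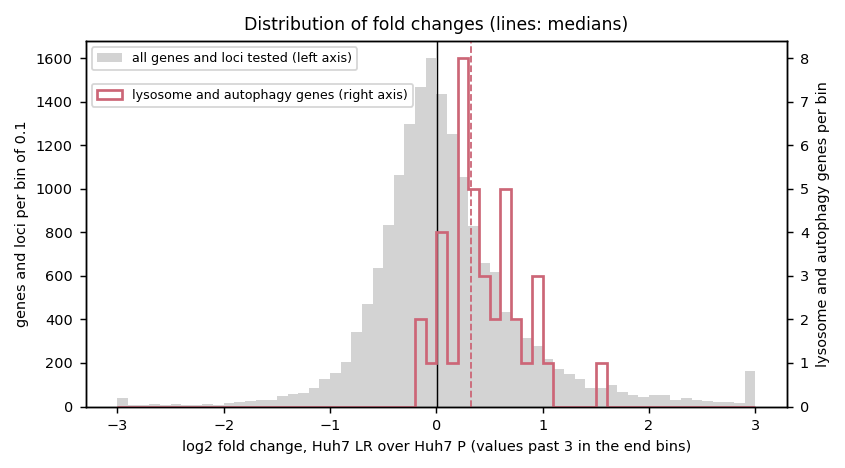
Histogram of log2 fold changes (x axis, bins of 0.1) for all 17531 genes and loci tested (grey, left axis) and for the 39 lysosome and autophagy genes (red outline, right axis), with a line at each median. The grey distribution is centred near 0, and the red one has its median at 0.33 with no gene below -0.17.

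The higher genes were spread over the genome. The 29 lay on 17 chromosomes, and each was above the median log2 fold change of the tested genes within 5 Mb of it. Those local medians ran from -0.22 to 0.16, and the genes exceeded them by a median of 0.51. The 29 had been picked for being higher, the least of them by 0.23 (GLA). Lying above local medians of at most 0.16 was therefore set by that choice. Among the genes that did not pass, CTSC (by 0.23), CTSZ (0.12) and ATP6V1A (0.03) lay below their local medians and the others above. A regional origin of the changes was not tested.

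RefSeq promoter windows (GRCh38.p14, 250 bases before to 50 bases after the transcription start) were found for 29 of the 40 genes. The E-box CACGTG, which reads the same on both strands, was present in 9 of the 29 (31%), against 8.78% of 27305 genes with such windows and 12.3% of the 10929 that were tested. Its longer form (TCACGTG, or CACGTGA on the other strand, both of which contain CACGTG) was in 8 of the 29 (27.6%), against 4.49% of all and 6.95% of tested genes. A gene was counted if any of its windows held the letters, and CD63 was counted through only 1 of several windows. By window, the E-box was in 9 of 45 (20%), against 7.26% of all windows and 9.06% of those of tested genes. Of the 45, 6 windows are shown to set promoters with and without the E-box beside different responses: 4 genes with E-boxes that rose, GAA with E-boxes and a fold change near 0, and GABARAPL1 with none and a rise past 2-fold. They are the reference sequence and not that of the cell line, each is written from 5′ to 3′ on the gene's own strand, and capitals mark CACGTG.
LAMP1 (chr13:113296989-113297288, plus strand): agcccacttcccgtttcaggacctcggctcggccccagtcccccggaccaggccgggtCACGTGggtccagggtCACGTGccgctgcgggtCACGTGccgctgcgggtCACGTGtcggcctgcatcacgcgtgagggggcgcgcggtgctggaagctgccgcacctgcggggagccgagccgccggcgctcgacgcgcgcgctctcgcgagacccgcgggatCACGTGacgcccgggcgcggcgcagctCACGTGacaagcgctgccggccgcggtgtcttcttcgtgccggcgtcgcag
NEU1 (chr6:31862772-31863071, minus strand): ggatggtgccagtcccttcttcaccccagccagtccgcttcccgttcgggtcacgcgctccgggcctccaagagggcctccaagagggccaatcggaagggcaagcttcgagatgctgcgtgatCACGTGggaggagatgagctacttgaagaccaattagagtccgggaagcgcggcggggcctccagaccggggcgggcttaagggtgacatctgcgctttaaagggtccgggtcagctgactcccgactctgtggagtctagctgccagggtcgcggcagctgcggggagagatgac
ATP6V0D1 (chr16:67481108-67481407, minus strand): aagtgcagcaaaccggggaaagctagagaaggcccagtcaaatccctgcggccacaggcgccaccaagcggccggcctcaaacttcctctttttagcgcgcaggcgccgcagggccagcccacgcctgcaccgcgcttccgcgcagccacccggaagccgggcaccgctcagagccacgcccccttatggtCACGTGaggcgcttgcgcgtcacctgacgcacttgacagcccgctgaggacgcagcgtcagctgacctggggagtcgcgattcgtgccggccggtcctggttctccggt
CTSA (chr20:45891085-45891384, plus strand): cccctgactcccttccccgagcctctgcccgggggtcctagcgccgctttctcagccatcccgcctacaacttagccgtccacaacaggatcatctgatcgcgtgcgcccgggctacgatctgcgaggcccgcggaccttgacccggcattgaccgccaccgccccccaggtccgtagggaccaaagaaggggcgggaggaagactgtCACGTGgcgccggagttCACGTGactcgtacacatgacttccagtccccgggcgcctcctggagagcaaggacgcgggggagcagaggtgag
GAA (chr17:80101331-80101630, plus strand): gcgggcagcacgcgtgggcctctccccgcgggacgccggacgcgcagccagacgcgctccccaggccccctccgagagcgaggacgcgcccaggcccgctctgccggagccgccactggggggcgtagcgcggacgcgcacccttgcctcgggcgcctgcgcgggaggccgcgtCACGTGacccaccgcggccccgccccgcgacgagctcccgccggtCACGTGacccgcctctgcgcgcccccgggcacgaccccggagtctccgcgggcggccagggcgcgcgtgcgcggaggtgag
GABARAPL1 (chr12:10212627-10212926, plus strand): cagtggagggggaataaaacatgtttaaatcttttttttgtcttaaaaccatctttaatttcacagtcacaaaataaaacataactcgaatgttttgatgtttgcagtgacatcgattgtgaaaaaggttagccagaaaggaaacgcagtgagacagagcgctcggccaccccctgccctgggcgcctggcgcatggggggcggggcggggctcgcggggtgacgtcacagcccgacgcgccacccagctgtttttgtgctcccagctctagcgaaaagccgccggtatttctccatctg

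LAMP1 held 6 E-boxes, counted by their first base at -192, -176, -159, -142, -28 and -1 from the start. CTSA (-42 and -25), GAA (-76 and -31), GALNS (-174 and -32) and MCOLN1 (-41 and -14) held 2 each, and ATP6V0D1 (-59), NEU1 (-126), CTSD (-47) and CD63 (-180) held 1. The number of E-boxes did not order the fold changes: LAMP1, with 6, had a log2 fold change of 0.26, and NEU1, with 1, had 0.92. Among the 9 genes with an E-box, 7 rose and the median log2 fold change was 0.28 (0.00 to 0.92). Among the 19 tested genes with a window and no E-box, 15 rose and the median was 0.41 (-0.17 to 1.51). In the wider lists described further on, the order was the other way, with a median of 0.27 with an E-box (33 genes, 19 higher and 1 lower) and 0.16 without (121 genes, 52 higher and 13 lower). These differences were not tested. Over all tested genes the medians were -0.05 with an E-box (1341 genes, 303 higher and 390 lower) and -0.01 without (9588 genes, 2335 higher and 2441 lower). A match is only these letters in this window, and its absence says nothing about the factors.

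**Figure D3:**
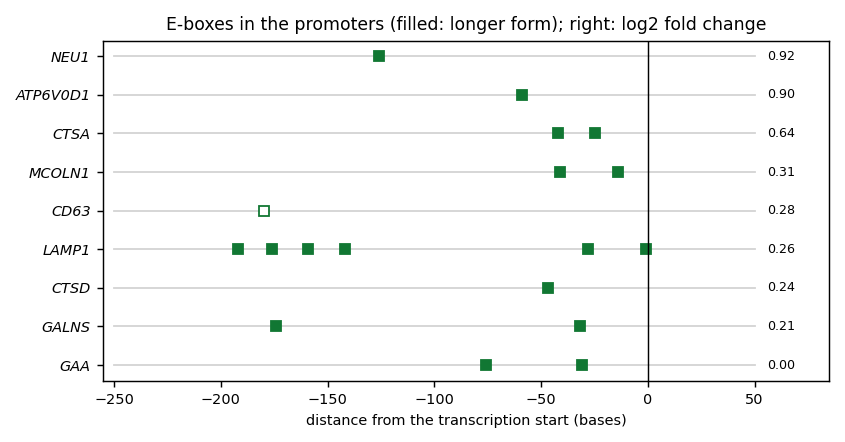
Position of each E-box (squares; filled for the longer form, open for CACGTG without it) in the promoter windows of the 9 genes that held one (y axis), as distance from the transcription start in bases (x axis), with each gene's log2 fold change at the right. LAMP1 has 6 squares and a fold change of 0.26, whereas NEU1 and ATP6V0D1 have 1 square each and fold changes of 0.92 and 0.90.

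All 5 lysosomal membrane proteins rose, by a median of 0.31 on the log2 scale, and their summed level was 817 to 834 CPM in Huh7 P and 1047 to 1128 CPM in Huh7 LR. SCARB2, the receptor that carries β-glucocerebrosidase to the lysosome, was at 133, 133 and 138 CPM in Huh7 P and 222, 208 and 216 CPM in Huh7 LR. The lines were far apart for this gene, with a gap wider than the range within either. Its log2 fold change was 0.68 (SE 0.06, 95% interval 0.53 to 0.82, adjusted p = 1.45e-05), from 135 ± 2.92 to 215 ± 7.17 CPM (SD, n = 3). LAMP2, a major glycoprotein of the lysosomal membrane and the receptor of chaperone-mediated autophagy, moved from 80.1, 79.9 and 78.5 CPM to 129, 115 and 121 CPM, a log2 fold change of 0.62 (adjusted p = 3.68e-05). Its sister LAMP1 was at 204, 208 and 198 CPM in Huh7 P and 215, 274 and 240.4 CPM in Huh7 LR. LAMP1 had the smallest change of the group, 0.26 (SE 0.09, 95% interval 0.06 to 0.45, adjusted p = 0.0328), and Huh7 LR 1 lay close to the parental range. The tetraspanin CD63, found on late endosomes and exosomes, rose by 0.28 (383 ± 8.76 to 466 ± 22.6 CPM, adjusted p = 0.00529). MCOLN1, the calcium channel TRPML1, was at 25.5, 25.4 and 26.6 CPM and then 27.4, 38.4 and 30.4 CPM, and its rise of 0.31 (adjusted p = 0.0425) was carried most by Huh7 LR 2. MCOLN1 shares 6 exon bases on the same strand with PNPLA6, and with the counts of both summed its log2 fold change was 0.07 (adjusted p = 0.444).

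Of the 8 cathepsins and related peptidases, 5 rose and 3 did not pass, and their summed level was 1201 to 1231 CPM in Huh7 P and 1416 to 1515 CPM in Huh7 LR. CTSH, a cysteine aminopeptidase, was at 10.4, 11.2 and 12.3 CPM in Huh7 P and 23.4, 22.2 and 19.3 CPM in Huh7 LR. It was the least expressed of the 8 by mean CPM in Huh7 P and had the largest change, 0.94 (SE 0.11, 95% interval 0.71 to 1.17, adjusted p = 3.93e-05, 1.92-fold). CTSA, the carboxypeptidase that holds NEU1 and GLB1 in a stable complex, went from 195, 197 and 194 CPM to 263, 345 and 306 CPM. The parental libraries were within a few CPM of each other, the Huh7 LR libraries were all above them and more scattered, and the log2 fold change was 0.64 (adjusted p = 0.000224). Part of CTSA's exons lies opposite NEURL2 and PLTP, and whether the counting used strand is not given. TPP1, a tripeptidyl peptidase, rose by 0.57 (127 ± 7.20 to 189 ± 6.39 CPM, adjusted p = 7.8e-05). The most abundant of the group, the aspartic protease CTSD, was at 384, 353 and 356 CPM in Huh7 P and 455, 396 and 440.4 CPM in Huh7 LR. Its rise was 0.24 (adjusted p = 0.0219), and 1304 of its 3126 exon bases (41.7%) are shared on the same strand with AC068580.4, whose counts summed with it gave 0.35 (adjusted p = 0.0016). CTSB, a cysteine protease, rose by 0.25 (160.1 ± 3.02 to 189.8 ± 15.9 CPM, adjusted p = 0.0201).

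The 3 peptidases that did not pass were cysteine cathepsins. CTSC, which activates serine proteases of immune cells, was at 216, 237 and 244 CPM in Huh7 P and 192, 229 and 198 CPM in Huh7 LR. The groups overlapped, and its log2 fold change of -0.17 (SE 0.08, 95% interval -0.36 to 0.01, adjusted p = 0.115) was the lowest of the peptidases. Without Huh7 LR 2 it was -0.24 with an adjusted p of 0.017. CTSL (42.2 ± 1.75 and 44.8 ± 3.95 CPM) had an interval of -0.09 to 0.27, and CTSZ (78.9 ± 4.19 and 78.0 ± 10.2 CPM) one of -0.22 to 0.19.

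Of the 12 sugar-cleaving hydrolases and sulfatases, 9 rose and 3 did not pass, with a median of 0.35 and a summed level of 854 to 869.5 CPM in Huh7 P and 1109 to 1222 CPM in Huh7 LR. NEU1, the lysosomal sialidase, was at 68.7, 68.1 and 71.5 CPM in Huh7 P and 123, 142 and 129 CPM in Huh7 LR. The lowest resistant library was well above the highest parental one, and the rise of 0.92 (SE 0.07, 95% interval 0.76 to 1.08, adjusted p = 4.09e-06, 1.89-fold) was the largest of the 12. GLB1, the β-galactosidase of the same complex, went from 147, 159 and 164 CPM to 205, 240.1 and 209 CPM, a rise of 0.48 (adjusted p = 0.000681). The 3 partners of that complex, NEU1, GLB1 and CTSA, thus all rose, by unequal amounts.

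Enzymes that break down glycosaminoglycans, the long sugar chains of the cell surface and matrix, gave mixed results. NAGLU, an exo-enzyme of heparan sulphate, rose by 0.74, from 44.5, 50.2 and 49.3 CPM to 76.7, 86.4 and 78.0 CPM (adjusted p = 2.46e-05). The iduronate sulfatase IDS was at 10.1, 10.0 and 10.1 CPM and then 13.5, 12.4 and 13.7 CPM, a rise of 0.39 (adjusted p = 0.0065). The β-glucuronidase GUSB rose by 0.31 (83.8 ± 1.32 to 104 ± 1.63 CPM, adjusted p = 0.00194). SGSH, the sulfamidase of heparan sulphate, was at 22.4, 21.3 and 20.2 CPM in Huh7 P and 24.9, 23.8 and 23.6 CPM in Huh7 LR. Its groups did not overlap, yet its log2 fold change of 0.18 had an adjusted p of 0.0931. GALNS, a sulfatase of keratan and chondroitin sulphate, overlapped between the lines (19.2 ± 0.940 and 22.2 ± 2.99 CPM) and had an interval of -0.02 to 0.44.

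The other enzymes of the group act on glycolipids, glycoproteins and glycogen. ARSA, which removes sulphate from sulfatide, rose by 0.67, from 11.7, 11.6 and 10.7 CPM to 18.4, 19.0 and 16.5 CPM (adjusted p = 0.000231). MAN2B1, the acid α-mannosidase, rose by 0.51 (152 ± 3.95 to 217 ± 12 CPM, adjusted p = 0.000151). HEXA, a β-hexosaminidase subunit that acts on gangliosides, rose by 0.24 (adjusted p = 0.0277), and GLA, the α-galactosidase, by 0.23 (adjusted p = 0.0317). GAA, the acid α-glucosidase of lysosomal glycogen, was the exception. It was at 139.7, 129 and 122 CPM in Huh7 P and 132, 133 and 126 CPM in Huh7 LR. The ranges were nested, and the log2 fold change was 0.00 (SE 0.07, 95% interval -0.16 to 0.16, adjusted p = 0.998), which leaves out a change as large as that of most of its neighbours in the group.

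**Figure D4:**
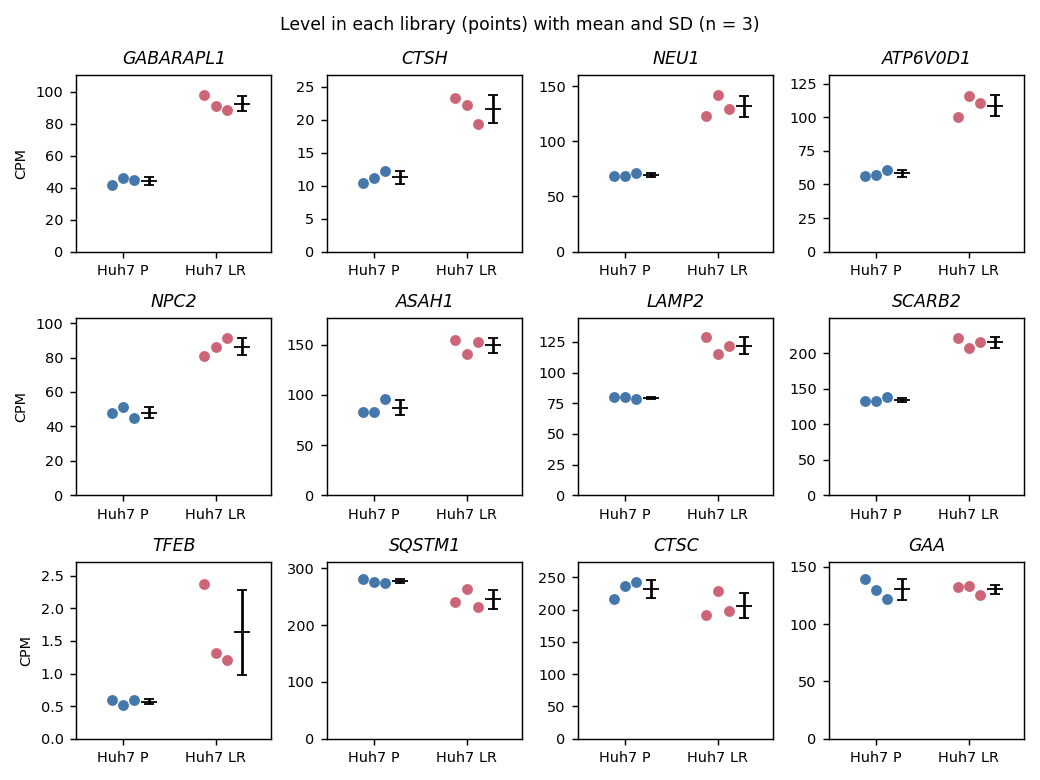
Level in CPM (y axes, linear from 0) of 12 genes in each of the 3 Huh7 P (blue) and 3 Huh7 LR (red) libraries, with the mean and SD beside the points. The top 2 rows show genes whose groups are far apart, and in the bottom row TFEB has Huh7 LR 1 at 2.38 CPM above the others, SQSTM1 is lower in all Huh7 LR libraries, and CTSC and GAA overlap.

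All 4 lipid-handling genes rose, with the highest median (0.63) of the groups with more than 3 tested genes, and their summed level was 1048 to 1139 CPM in Huh7 P and 1471 to 1698 CPM in Huh7 LR. NPC2, the soluble protein that passes cholesterol to NPC1 for export, was at 47.9, 51.4 and 44.7 CPM in Huh7 P and 81.2, 86.4 and 91.2 CPM in Huh7 LR. Its change of 0.85 (SE 0.08, 95% interval 0.68 to 1.02, adjusted p = 9.69e-06, 1.80-fold) was far larger than the spread within the lines. ASAH1, the acid ceramidase, went from 83.1, 83.4 and 95.7 CPM to 155, 141 and 153 CPM, a rise of 0.77 (adjusted p = 2.08e-05). PSAP, the precursor of the saposins that present sphingolipids to their hydrolases, had the highest CPM of the 40 genes, at 883, 938 and 959 CPM in Huh7 P and 1188, 1429 and 1257 CPM in Huh7 LR. Its rise was 0.48 (927 ± 39.3 to 1291 ± 124 CPM, adjusted p = 0.000678). LIPA, the acid lipase of cholesteryl esters and triglycerides, was at 34.1, 32.5 and 39.3 CPM and then 47.7, 42.3 and 41.0 CPM. It had the smallest change of the 4, 0.31 (SE 0.09, 95% interval 0.10 to 0.51, adjusted p = 0.0185), and its groups came close without touching.

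The proton pump was uneven, with 2 of its 5 listed subunits higher and 3 not passed. ATP6V0D1, the d subunit of the membrane sector, was at 56.4, 57.3 and 60.9 CPM in Huh7 P and 99.9, 116 and 111 CPM in Huh7 LR. The gap between the lines was many times the range within Huh7 P, and the rise was 0.90 (SE 0.08, 95% interval 0.74 to 1.07, adjusted p = 5.52e-06, 1.87-fold). The accessory protein ATP6AP1 rose by 0.41, from 95.7, 90.0 and 92.0 CPM to 112, 134 and 124 CPM (adjusted p = 0.0013). The 3 subunits of the cytosolic sector did not pass. ATP6V1A, which holds the catalytic sites, was at 152, 147 and 138 CPM in Huh7 P and 163, 134 and 158 CPM in Huh7 LR, with overlapping groups and a log2 fold change of 0.05 (SE 0.08, 95% interval -0.13 to 0.24, adjusted p = 0.641). ATP6V1B2, its non-catalytic partner in the head, had an interval of -0.09 to 0.23. The regulatory subunit ATP6V1H had one of -0.03 to 0.47. The difference in response between the sectors was not tested.

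Both ATG8 proteins of the list rose and the cargo receptor did not. GABARAPL1, which is conjugated to the autophagosome membrane, was at 41.6, 46.1 and 44.9 CPM in Huh7 P and 97.9, 91.0 and 88.7 CPM in Huh7 LR. The lowest Huh7 LR library was nearly as far above the highest Huh7 P library as that library was above 0, and the rise was 1.07 (SE 0.07, 95% interval 0.91 to 1.22, adjusted p = 1.41e-06, 2.09-fold). MAP1LC3B, which encodes LC3B, went from 32.7, 33.9 and 35.2 CPM to 56.2, 54.5 and 52.7 CPM, a rise of 0.68 (adjusted p = 2.11e-05). Its near copy MAP1LC3B2 had 43 to 85 counts per library, against 2092 to 3816 for MAP1LC3B. SQSTM1 (p62), which ties ubiquitinated cargo to LC3, was at 281, 276 and 275 CPM in Huh7 P and 241, 264 and 232 CPM in Huh7 LR. It was lower in each Huh7 LR library, with a log2 fold change of -0.17 (SE 0.07, 95% interval -0.33 to -0.02) and an adjusted p of 0.0646. DESeq2 gave -0.18 with an adjusted p of 0.0342, the fit without Huh7 LR 2 gave -0.22 with an adjusted p of 0.0121, and on the deposited FPKM values the difference was -0.01. SQSTM1 shares 1582 of its 7654 exon bases (20.7%) with MRNIP on the opposite strand.

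Of the 3 MiT/TFE factors on the list, TFE3 had the highest level, TFEB was scarce, and MITF was close to absent. TFE3 was at 109, 109 and 106 CPM in Huh7 P and 124, 151 and 132 CPM in Huh7 LR. Each resistant library was above the parental ones, and the rise was 0.33 (SE 0.08, 95% interval 0.15 to 0.50, adjusted p = 0.00658). The counts of TFEB were 43, 32 and 39 in the parental libraries and 155, 92 and 82 in the resistant ones, or 0.599, 0.519 and 0.597 CPM and then 2.38, 1.31 and 1.20 CPM. Huh7 LR 1 stood above the other two, yet the lines did not overlap, and the log2 fold change of 1.51 (SE 0.30, 95% interval 0.85 to 2.17, adjusted p = 0.0019, 2.84-fold) had the widest interval of the 39. Without Huh7 LR 1 it was 1.13 (adjusted p = 0.0049). MITF was at 0 in all parental libraries and at 0, 7 and 4 counts in the resistant ones, and was not tested. A count of 0 allows up to 3 counts, or 0.042 to 0.0478 CPM on unscaled library totals, from counting error alone. The remaining gene of the family, TFEC, is on a wider list and was at 82.5, 85.3 and 100.7 CPM in Huh7 P and 65.1, 70.97 and 86.0 CPM in Huh7 LR. Its groups overlapped, and its log2 fold change was -0.27 (adjusted p = 0.0607), named here after its values were seen. These are transcript levels and say nothing of where the factors were in the cell.

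Levels between genes can be compared per length, on the FPKM values (fragments scaled to transcript length and to library total) that were deposited. In Huh7 P, CD63 was highest at 345 ± 20.3 FPKM, followed by PSAP at 296 ± 9.73 FPKM and CTSD at 173 ± 5.21 FPKM, and the libraries of these 3 did not overlap. In Huh7 LR, PSAP (420.5 ± 37.0 FPKM) and CD63 (413 ± 18.0 FPKM) overlapped, with CTSD below them at 218 ± 18.4 FPKM. At the other end, IDS was at 1.34 ± 0.0447 and 1.84 ± 0.0782 FPKM and TFEB at 0.223 ± 0.0256 and 0.658 ± 0.250 FPKM. TFE3 stood at 29.7 ± 0.816 and 38.1 ± 3.49 FPKM, so it was the more abundant of the pair in both lines.

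Of the 29 genes that rose, 22 passed with each of the 6 libraries left out in turn, and between 22 (without Huh7 P 2) and 27 (without Huh7 LR 1) passed in any such fit. The 7 others lay close to the threshold. LAMP1 and GLA passed only without Huh7 LR 1, with log2 fold changes of 0.17 to 0.34 and 0.17 to 0.26 over the 6 fits, and so did MCOLN1 with 0.17 to 0.41. HEXA was lost without any Huh7 P library or Huh7 LR 3 (0.18 to 0.30) and on FPKM values (0.11, adjusted p = 0.197). CTSB was lost without Huh7 P 1, Huh7 P 2 or Huh7 LR 3 (0.19 to 0.31), CTSD without Huh7 P 2, Huh7 P 3, Huh7 LR 1 or Huh7 LR 3 (0.20 to 0.31), and LIPA without Huh7 P 1, Huh7 P 2 or Huh7 LR 1 (0.24 to 0.39). None of these 7 changed sign in any of the fits.

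A wider set of 200 genes of the same pathway, in 7 lists that do not include the 40, was read in the same fit. Of 196 tested, 94 (48%) rose and 18 (9.18%) fell, and the median log2 fold change was 0.22. The background over all genes and loci tested was 23.3% that rose and 22.4% that fell. The acid hydrolases not on the main list had the highest share of the 7 lists: 23 of 34 rose (67.6%), 2 fell (GALC and PPT1), and the median was 0.54. The count that fell was 1 with library totals, in both FPKM fits and with any library but Huh7 LR 2 left out. IDUA, the iduronidase of heparan and dermatan sulphate, went from 3.28 ± 0.676 to 9.57 ± 0.876 CPM (1.54, adjusted p = 2.6e-05), although 534 of its 4000 exon bases lie opposite SLC26A1. FUCA1, the lysosomal fucosidase, rose by 1.52 (6.07 ± 0.228 to 17.4 ± 0.685 CPM, adjusted p = 1.13e-06), and the cysteine cathepsin CTSO by 1.25 (adjusted p = 3.56e-05).

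GALC, the galactosylceramidase of myelin lipids, went sharply the other way. It was at 8.54, 8.64 and 9.57 CPM in Huh7 P and 0.798, 0.600 and 0.850 CPM in Huh7 LR. All 3 resistant libraries had under 1 CPM, and the log2 fold change was -3.57 (SE 0.17, 95% interval -3.94 to -3.20, adjusted p = 1.58e-07). ASAH1, which takes the ceramide that GALC releases, rose in the same libraries.

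Among other lysosomal membrane and transport proteins, 17 of 32 tested rose (53.1%, background 23.3%) and 4 fell (12.5%, background 22.4%). LAMP3, a LAMP family member of restricted expression, was at 1.03, 1.38 and 0.795 CPM in Huh7 P and 8.33, 8.45 and 7.55 CPM in Huh7 LR. It had the largest rise of the wider set, 2.93 (SE 0.19, adjusted p = 1.18e-06), on a low level. NPC1, the membrane protein that receives cholesterol from NPC2, rose by 1.03 (127 ± 2.09 to 259 ± 14.0 CPM, adjusted p = 1.28e-06), so both partners of that export step were higher. The lowest was LAPTM4B, a membrane protein of late endosomes, which fell by 0.63 on the log2 scale (362 ± 28 to 234 ± 14.1 CPM, adjusted p = 9.29e-05). CD68, SLC29A3 and MFSD8 were the other 3 that fell.

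The remaining V-ATPase subunits moved in both directions, whereas all 5 on the main list had a log2 fold change above 0. Of 18 tested, 4 rose (ATP6V0A1, ATP6V0E1, ATP6V0C and ATP6V1F) and 2 fell (ATP6V0A2 and ATP6V1C1), and the share that rose, 22.2%, was near the background. The count of these subunits that fell was 1 with library totals, no filter, at least 10 counts in every library, the replicate block and both FPKM fits, and without Huh7 P 2, Huh7 P 3, Huh7 LR 2 or Huh7 LR 3. ATP6V0A1, a subunit of the proton channel sector, rose by 0.53 (adjusted p = 9.26e-05), and ATP6V1C1, of the cytosolic sector, fell by 0.29 (adjusted p = 0.00942). Genes of autophagosome formation and fusion rose in 16 of 35 cases and fell in 3 (ATG3, ATG2B and ATG4C), with a median of 0.12, where 23.3% of all genes and loci tested rose and 22.4% fell. The count that rose was 8 without Huh7 P 2 and 9 without Huh7 P 3, and the count that fell was 0 in both FPKM fits and without Huh7 P 3 or Huh7 LR 3. The kinase gene ULK2 went from 0.566 ± 0.0848 to 1.82 ± 0.216 CPM (1.68, adjusted p = 0.000173), and ATG4C, a protease of ATG8 proteins, had -0.31 (adjusted p = 0.0451).

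Selective autophagy receptors and their partners rose in 9 of 18 cases (50%, background 23.3%) and fell in 1 (5.56%, background 22.4%). Without Huh7 LR 1, 2 fell. CCPG1, a receptor for endoplasmic reticulum, fell by 0.49 on the log2 scale (adjusted p = 0.000816). A list on the control of TFEB by mTORC1 and the Rag GTPases also holds the transcription factors TFEC and ZKSCAN3. Of its 30 tested genes, 11 rose (36.7%, background 23.3%), ZKSCAN3 among them, and the median was 0.09. The 3 that fell (10%, background 22.4%) were DEPTOR, FNIP2 and RPTOR. The count that fell was 1 without Huh7 P 1 or Huh7 P 2 and in both FPKM fits, and 6 without Huh7 LR 2. CASTOR1, an arginine sensor upstream of mTORC1, rose by 1.29 (1.39 ± 0.325 to 3.41 ± 0.546 CPM, adjusted p = 0.000517), with 1262 of its 2746 exon bases shared with AC004997.1. DEPTOR, an inhibitory partner of mTOR, was at 21.8, 22.0 and 21.9 CPM in Huh7 P and 12, 8.74 and 8.94 CPM in Huh7 LR. The parental libraries hardly differed, all resistant ones were lower, and the log2 fold change was -1.15 (SE 0.12, adjusted p = 3.03e-05).

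Genes that sort enzymes to the lysosome or fuse vesicles with it rose in 14 of 29 cases (48.3%, background 23.3%). They fell in 3 (10.3%, background 22.4%). LYST, the gene of a giant protein that governs lysosome size, rose by 1.29 (2.92 ± 0.346 to 7.13 ± 0.695 CPM, adjusted p = 4.2e-05). The 3 that fell were subunits of the retromer, which takes sorting receptors back from endosomes to the Golgi. VPS26A fell by 0.50 on the log2 scale (adjusted p = 0.000468), and VPS29 (-0.33, adjusted p = 0.0274) and VPS35 (-0.27, adjusted p = 0.00877) were named after their values were seen. VPS29 passed although its groups overlapped. In this list 9 genes rose without Huh7 P 1, Huh7 P 2 or Huh7 LR 3, and 1 fell without Huh7 P 2.

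**Figure D5:**
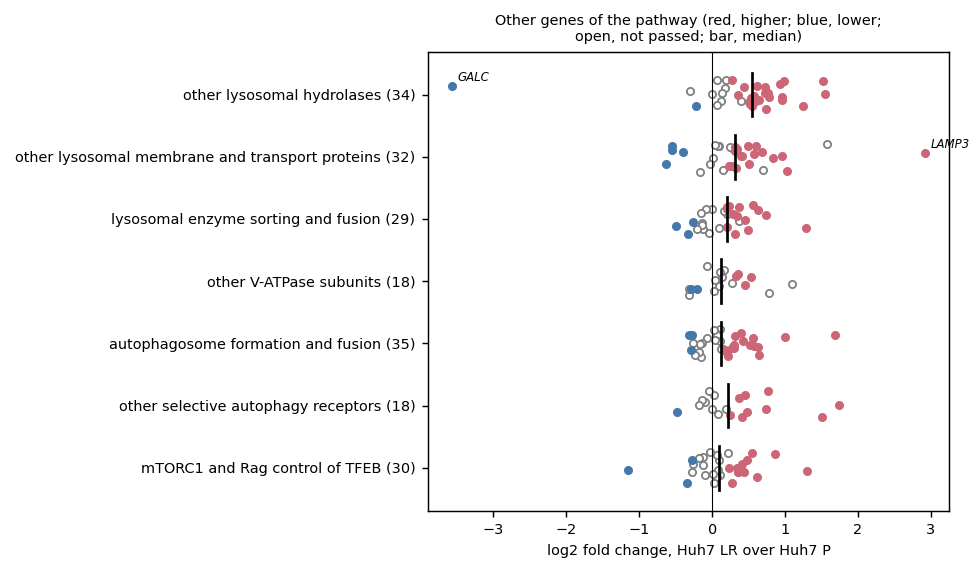
Log2 fold change of Huh7 LR over Huh7 P (x axis) for each tested gene of the 7 wider lists (y axis, number tested in brackets), red where higher and blue where lower at an adjusted p under 0.05, open where not passed, with a bar at each median. The medians run from 0.09 for the mTORC1 and Rag list to 0.54 for the other hydrolases, with GALC at -3.57 and LAMP3 at 2.93 as the extremes.

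Markers of other cell types moved with the comparison. The 6 fibroblast markers summed to 2.16 to 2.28 CPM in Huh7 P and 5.02 to 8.02 CPM in Huh7 LR, with 0 counts of DCN in every library and 2 of the 6 tested and higher. The 4 endothelial markers summed to 38.8 to 47.5 CPM in Huh7 P and 65.0 to 71.2 CPM in Huh7 LR, nearly all of it PECAM1 (44.0 ± 4.56 and 68.7 ± 3.42 CPM, adjusted p = 0.000135), with CDH5 and KDR at 0 and both tested genes higher. The part of these markers in the results was not tested.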

How the data were processed

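Poly(A) RNA had been sequenced from 3 Huh7 P and 3 Huh7 LR samples. The authors deposited 1 table with raw counts and FPKM for each library; FPKM values were divided by the authors for gene length and depth. The submitters' processing notes name TopHat2, Cufflinks, DESeq and the mouse build mm10 with no roles, although the gene identifiers are human, and the extraction text of the labels speaks of an insect. The build of the table, aligner settings and use of strand are not given in the sources used here. Unannotated loci took 2.86 to 3.35% of counts, and 34 lines of text naming no gene were dropped.

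Counts were tested with edgeR 4.0.16 (R 4.3.3; quasi-likelihood, trimmed mean of M-values, filterByExpr with a minimum count of 10 and a minimum total of 15), with Benjamini-Hochberg adjustment over 17531 genes and loci. The biological coefficient of variation was 12.7%. Intervals are 95% intervals from this fit and include the spread between plates. The limit on a count of 0 (3 counts) covers counting error only. DESeq2 1.42.0, and limma 3.58.1 on log2(FPKM + 0.1) or log2(FPKM + 1), were alternatives, as were other scalings, filters, a replicate block, sums over overlapping genes and each library left out. For FPKM fits a gene had to reach 0.5 FPKM in 3 libraries or more. Differences on FPKM are on the log2(FPKM + 0.1) scale and understate changes of low genes. Scripts were checked on simulated counts. Exon overlaps came from GENCODE 29 and promoters from RefSeq. The replicates' counts differed by more than sampling noise, so none was counted as a duplicate.

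The members and lists were chosen with earlier results of these data known. All 40 members are accounted for. Of the wider lists, the genes past an adjusted p under 0.001 and 2-fold are named, with those of the largest and smallest log2 fold change among those that passed in each list. A gene that this rule names is not reported here. Other names of the wider lists make up counts of 5 or fewer, or are transcription factors, and were chosen after their values were seen.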

Additional observations from a re-analysis of the deposited data

How the results depend on the processing

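The 29 members that rose stayed 29 under DESeq2's size factors, library totals, the DESeq2 test, no filter and at least 10 counts in every library, and were 27 in both FPKM fits, where TFEB was too low to enter. They were 28 with same-strand overlapping genes summed, and 29 where only genes sharing at least 50 exon bases were summed, a choice made after seeing the data. Of the 29, 21 passed in all 14 fitted settings. Library totals moved the median of all genes from 0.00 to 0.04 and that of the members from 0.33 to 0.36.

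Members that fell numbered 0, but 1 with DESeq2 (SQSTM1) and 0 to 2 with a library left out. Members past 2-fold numbered 1, but 2 with DESeq2 and with no filter (TFEB added), 0 on log2(FPKM + 1), and 1 to 2 with a library left out (CTSH added). On log2(FPKM + 0.1) the gene past 2-fold was CTSH (1.02), and GABARAPL1, at 0.9995, was just short of it. Other hydrolases that fell numbered 2, but 1 with library totals and in both FPKM fits, and 1 to 2 with a library left out. V-ATPase subunits that fell numbered 2, but 1 with library totals, no filter, at least 10 counts and both FPKM fits, and 1 to 2 with a library left out. For autophagosome genes, 8 to 15 rose and 0 to 4 fell with a library left out, 1 fell with library totals and with at least 10 counts, and 0 fell in both FPKM fits. Receptors that fell numbered 1 to 2 with a library left out. mTORC1 genes that fell numbered 1 in both FPKM fits and 1 to 6 with a library left out. Sorting genes that rose numbered 9 to 14, and those that fell 1 to 4, with a library left out. The cause of these shifts was not tested.

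Of 556 values of single members under alternatives, 510 kept their direction and side of the threshold, 32 lost the call, 3 gained it and 11 changed sign. The sign changes were those of CTSZ (0.0148 with library totals, 0.0027 in both FPKM fits, -0.0956 to 0.0807 with a library left out), GAA (-0.0015 with DESeq2, -0.0484 to 0.0506) and ATP6V1A (-0.003 to 0.14), none of which passed.

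The labels number the libraries of both lines 1 to 3, but same-numbered libraries correlated at r = 0.029, 0.0314 and 0.0317 in their deviations, so the numbers were not taken as pairs, although every library correlated best with its own number. With the replicate block, 29 members rose and 0 fell, and over all genes 4089 rose and 4033 fell, against 4093 and 3923 without it. The block gave 1 V-ATPase subunit and 5 autophagosome genes that fell.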
